A study of Mus musculus with 8 samples.

Results

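In DC-restricted progenitors (CDPs), 6 small RNAs that work as folded molecules rather than as messages were followed. They were Rmrp, the RNA of RNase MRP, Rpph1, the RNA of RNase P, Rn7sk, the 7SK RNA, Rn7s1 and Rn7s2, which encode 7SL RNA, and Terc, the telomerase RNA. They were taken by name, as structured non-coding RNAs between 271 and 423 nt long, with earlier results of these data known. All 6 were among the 16119 genes of the count table and among the 15837 genes that passed the filter on low counts.

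CDPs were sorted from the bone marrow (BM) of C57BL/6 mice (C57BL/6J in the study's methods), about 50000 cells a library, as lineage-negative cells with CD115 and Flt3, intermediate c-kit and low Sca1. The HFD group had received a diet with 60 kcal% fat (DIO, 16 weeks on the diet). The CF group were the matched controls on a diet with 10 kcal% fat. Each diet had 4 libraries, isolated as independent replicates per the study's methods, and total RNA was amplified with a kit that depletes rRNA. The labels give n = 4 per group but not whether a library holds the cells of a single mouse. They give no age beyond the time on the diet, and the methods describe males bought at 16 weeks of age.

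RNase MRP and RNase P are related ribonucleoproteins that share most of their protein subunits. RNase MRP cuts the ribosomal RNA precursor, and RNase P trims the leader of tRNA precursors. 7SK RNA holds the elongation kinase P-TEFb in an inactive particle, 7SL RNA is the scaffold of the signal recognition particle that brings secretory proteins to the endoplasmic reticulum, and Terc carries the template from which telomere repeats are copied. Rmrp, Rpph1, Rn7sk and 7SL are made by RNA polymerase III, whereas Terc is made by RNA polymerase II.

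Sequences are shown where they bear on which reads can be told apart. They are printed 5′ to 3′ as DNA letters from GENCODE vM21, on GRCm38. Rmrp lies on the minus strand at chr4:43492788-43493058, and its capitals mark the 124 bases that are also inside an exon of Ccdc107, a protein-coding gene on the opposite strand.
Rmrp: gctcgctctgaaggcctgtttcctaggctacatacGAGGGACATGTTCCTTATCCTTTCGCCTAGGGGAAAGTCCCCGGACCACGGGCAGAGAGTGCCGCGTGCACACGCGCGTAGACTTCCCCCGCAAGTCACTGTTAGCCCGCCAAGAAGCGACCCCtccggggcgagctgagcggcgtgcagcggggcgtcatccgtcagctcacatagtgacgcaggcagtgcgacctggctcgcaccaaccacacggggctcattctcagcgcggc

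Rpph1 lies on the minus strand at chr14:50807449-50807767. Of its 319 bases, the opening 300 are printed, and the capitals mark a 21-base unit that stands there 2 times in a row from position 182. Of Rpph1, 233 bases are inside exons of Ccnb1ip1 on the same strand, a gene that was not analysed here. Rmrp and Rpph1 were identical at 51.8% of the columns of their alignment, and the longest run they shared was 9 bases.
Rpph1: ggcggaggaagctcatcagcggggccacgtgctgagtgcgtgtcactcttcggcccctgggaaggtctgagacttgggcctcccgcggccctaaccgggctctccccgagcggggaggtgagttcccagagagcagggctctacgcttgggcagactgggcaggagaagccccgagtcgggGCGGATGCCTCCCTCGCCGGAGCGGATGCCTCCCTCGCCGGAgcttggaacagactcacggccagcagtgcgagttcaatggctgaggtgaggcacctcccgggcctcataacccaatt

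Rn7s1 lies on the plus strand at chr12:69159295-69159594 and Rn7s2 on the minus strand at chr12:69361182-69361481. Their sequences were identical over all 300 bases. At the 3′ end, 77 bases of Rn7s2 are shared with Gm47299, a gene annotated as a miRNA on the same strand. Rn7s1 holds the matching annotation, Gm47295, over 77 bases, and each gene holds a further one over 70 bases (Gm47287 in Rn7s1, Gm47305 in Rn7s2), but of these 4 miRNA genes counts of Gm47299 alone were analysed here.

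Rn7sk lies on the minus strand at chr9:78175303-78175633 and is 331 nt long. Its opening 100 bases are shown with those of Gm24447 (plus strand, chr15:93234363-93234700) and Gm26315 (minus strand, chr2:7076094-7076414), 2 genes annotated as misc_RNA that resemble it and were chosen here after their values were seen. The capitals mark GATC, which occurs 3 times in Rn7sk and is the letter string of the stem that HEXIM proteins bind. The longest run shared with Rn7sk was 241 bases in Gm24447 and 235 bases in Gm26315.
Rn7sk: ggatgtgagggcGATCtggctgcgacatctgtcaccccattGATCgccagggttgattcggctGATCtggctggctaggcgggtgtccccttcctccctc
Gm24447: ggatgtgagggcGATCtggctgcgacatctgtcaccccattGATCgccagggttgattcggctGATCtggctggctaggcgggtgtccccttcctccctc
Gm26315: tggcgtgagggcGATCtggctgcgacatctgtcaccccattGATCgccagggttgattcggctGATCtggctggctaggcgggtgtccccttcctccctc

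Terc lies on the minus strand at chr3:96414437-96414859 and is 423 nt long. Its opening 100 bases are shown, and the capitals mark CCTAACCC, the template region, which occurs once in the RNA, at position 28.
Terc: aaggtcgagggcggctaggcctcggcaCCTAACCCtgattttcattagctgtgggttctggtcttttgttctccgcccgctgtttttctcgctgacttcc

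The whole table set the background against which these RNAs were read. Between 28203651 and 48409689 counts per library were assigned to genes. Short non-coding genes, those whose exons add up to 200 nt or less, held 11.2% ± 2.08 of all HFD counts and 26.4% ± 5.13 of all CF counts (SD, n = 4 each), with no overlap between the groups, while the 6 structured RNAs together took 1.61% ± 0.436 and 2.10% ± 0.129. With edgeR's quasi-likelihood test and Benjamini-Hochberg adjustment, 67 genes (0.423%) were lower in HFD and none was higher, against 845 lower (5.34%) and 510 higher (3.22%) at an unadjusted p under 0.05. DESeq2 called 503 lower and 64 higher. The number of lower calls rested on single libraries: it was 166 without HFD replicate 1 and 154 without CF replicate 4, and 0 or 1 without any of the other 6. The median log2 fold change over all genes was 0.06. The genes of the sort gate were present in both diets, in CPM, the counts scaled by TMM to library size, with Kit at 42.6 ± 8.82 CPM in HFD and 47.9 ± 5.25 CPM in CF, Csf1r (CD115) at 97.4 ± 14.2 and 115 ± 14.7, Flt3 at 251 ± 123 and 265 ± 42.5, and the low Ly6a (Sca1) at 2.96 ± 0.333 and 2.27 ± 0.613, none of them called. Summed neutrophil markers stood at 19630 CPM in HFD replicate 1, at 929 to 3448 CPM in the other 3 HFD libraries and at 1890 to 6367 CPM in CF. All 10 of 10 were above 0 in log2 fold change with none called, which rests on HFD replicate 1, since the other 3 HFD libraries lay below CF replicates 2, 3 and 4. Erythroid markers summed to 390 CPM in HFD replicate 1, to 79.9 to 122 CPM in the other 3 HFD libraries and to 74.7 to 117 CPM in CF. Of them 7 of 7 were above 0 (median log2 fold change 0.82), none called and none at an unadjusted p under 0.05, and here too only HFD replicate 1 stood well above the CF range. B cell markers summed to 32.4 to 79.9 and 34.4 to 54.5 CPM, and 6 of 7 were above 0 (median 0.85), none called, 5 at an unadjusted p under 0.05 beside 3.22% of all genes, and Cd79a and Vpreb1 with groups that did not overlap beside 2.58%. T and NK cell markers summed to 11.6 to 29.1 and 13.0 to 21.6 CPM, and of 4 tested 2 were above 0, none called, with Cd4 at a log2 fold change of 1.87 (unadjusted p = 0.0221). The part of these cells in the results below was not tested.

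All 6 structured RNAs had a lower mean in HFD than in CF with TMM scaling, although Rn7sk and Terc came out just above 0 (log2 fold change 0.09 and 0.02) when scaled by library size alone. With edgeR none of the 6 passed the test across all genes. Their median log2 fold change was -0.40, and a log2 fold change below 0 was found for 40.3% of all genes tested. At an unadjusted p under 0.05, Rmrp and Rn7s2 were lower, 2 of 6 beside 5.34% of all genes. Rmrp alone had groups that did not overlap, 1 of 6 beside 3.58% of all genes that were apart in this direction. In bulk RNA, fewer cells of a type and less of an RNA per cell cannot be told apart, and the same holds for every value given here.

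**Figure D1:**
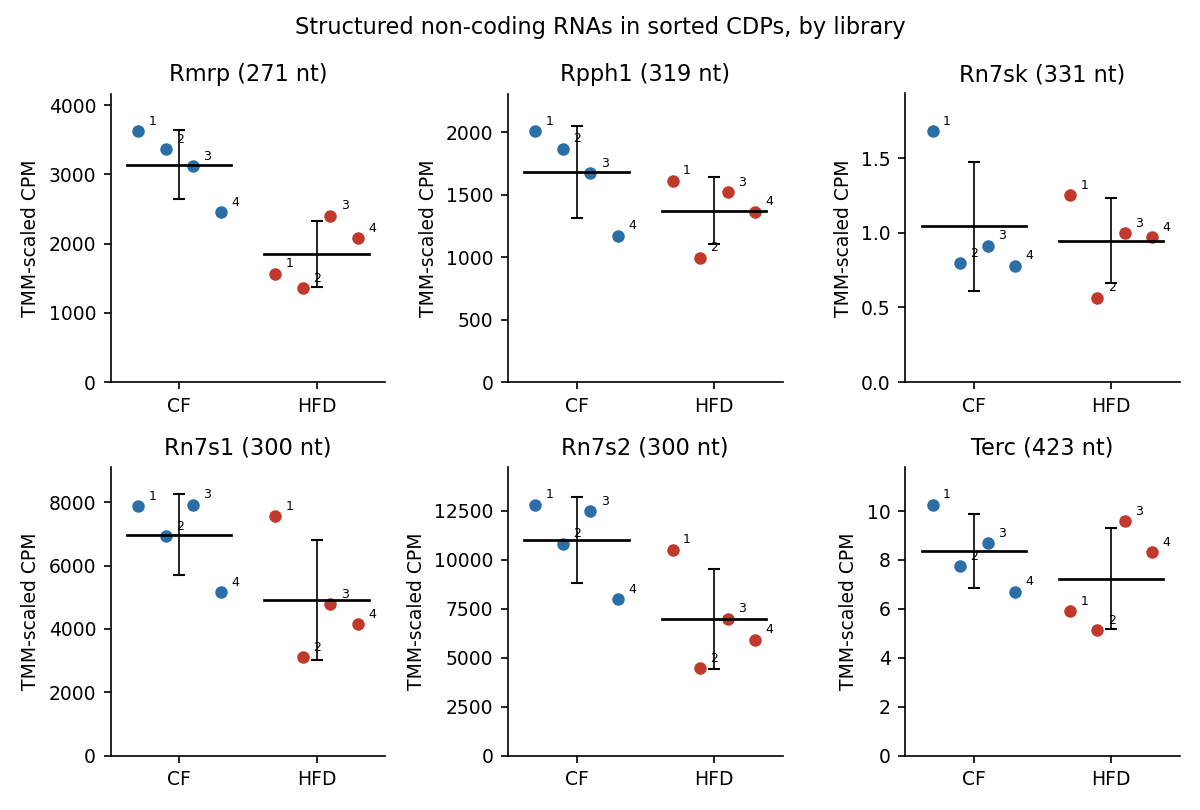
TMM-scaled CPM (linear axes from 0) of the 6 structured RNAs in CF (blue) and HFD (red). Points are single libraries with their replicate number, lines are means and bars are SD (n = 4 each). For Rmrp the 4 HFD libraries (1359 to 2404 CPM) lie below the 4 CF libraries (2457 to 3626 CPM), and for the other 5 RNAs the diets overlap.

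Rmrp, which takes part in the processing of ribosomal RNA, had the lowest log2 fold change of the 6 with all 8 libraries. It stood at 1567, 1359, 2404 and 2083 CPM in HFD replicates 1 to 4 and at 3626, 3361, 3122 and 2457 CPM in CF replicates 1 to 4. Every HFD library was below every CF library, although the gap between the highest HFD library and the lowest CF library was small beside the spread. Mean Rmrp was 1853 ± 477 CPM in HFD and 3141 ± 500 CPM in CF (SD, n = 4), or 0.59 of the CF level, and the log2 fold change was -0.76 ± 0.22 (SE). With edgeR's quasi-likelihood test the unadjusted p was 0.00792 and the adjusted p 0.237. DESeq2 gave nearly the same size, -0.77, with an adjusted p of 0.0144, so that the call depends on the tool. Ccdc107, whose exon lies on the opposite strand of Rmrp, had 3.32 ± 0.471 CPM in HFD and 3.21 ± 0.724 CPM in CF (log2 fold change 0.05, adjusted p = 0.981 by edgeR), well under the level of Rmrp. Whether the counting used strand is not given in the sources used here.

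As a share of all counts of a library, which needs no size factor, Rmrp took 0.200% ± 0.0545 in HFD and 0.289% ± 0.00570 in CF. The CF libraries were tightly grouped, between 0.282% and 0.296%, and the HFD libraries ranged from 0.153% to 0.267%. The log2 ratio of the mean shares was -0.54, with an exact two-sided permutation p of 0.0286, the smallest that 4 against 4 libraries can give, and 0.171 after adjustment over the 6 RNAs. The other shares had an unadjusted exact p between 0.114 and 0.971, and no share, Rmrp included, passed the adjustment.

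Rpph1, the catalytic RNA of RNase P, had 1613, 995.5, 1518 and 1365 CPM in HFD replicates 1 to 4 and 2008, 1868, 1673 and 1172 CPM in CF replicates 1 to 4. CF replicate 4 fell inside the HFD range. Its log2 fold change was -0.29 ± 0.22 (edgeR, adjusted p = 0.82), and it shrank to -0.0642 when scaled by library size alone and to -0.16 without HFD replicate 2. As a share of counts it was 0.147% ± 0.0253 in HFD and 0.154% ± 0.0116 in CF.

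The 7SL genes were the most abundant. Rn7s1 had 7565, 3113, 4787 and 4165 CPM in HFD replicates 1 to 4 and 7883, 6932, 7926 and 5174 CPM in CF replicates 1 to 4. Rn7s2 had 10510, 4469, 6994 and 5919 CPM in HFD and 12810, 10820, 12470 and 7999 CPM in CF, in the same order. In both genes HFD replicate 1 stood with the CF libraries and the other 3 HFD libraries lay below all 4 CF libraries. The log2 fold change was -0.51 ± 0.29 for Rn7s1 (adjusted p = 0.742) and -0.66 ± 0.29 for Rn7s2 (unadjusted p = 0.0483, adjusted p = 0.578, edgeR). Without HFD replicate 1 these were -0.79 (adjusted p = 0.17) and -0.93 (adjusted p = 0.139), both below Rmrp, which was then at -0.69 (adjusted p = 0.232). In the other direction, Rn7s1 was at -0.34 without HFD replicate 2 and at -0.30 when scaled by library size alone, which gave Rn7s2 -0.45. HFD replicate 1 also had the highest summed neutrophil markers, 19630 CPM, and the lowest share of short non-coding RNA, 8.43%. The part of either in its 7SL level was not tested.

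Rn7sk, the gene that carries the 7SK name, was hardly counted. It had 39, 18, 38 and 40 counts in HFD replicates 1 to 4 and 65, 25, 29 and 30 counts in CF replicates 1 to 4, which is 0.946 ± 0.283 and 1.04 ± 0.429 CPM. CF replicate 1 was the highest and the other 3 CF libraries lay inside the HFD range. The log2 fold change was -0.14 ± 0.37 (adjusted p = 0.966, edgeR), and at this depth a difference of the size seen for Rmrp would be about as large as 2 SE. The direction was not stable: without HFD replicate 2 the log2 fold change was 0.04 and without CF replicate 1 it was 0.19.

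Terc, a low-abundance RNA, had 184, 163, 365 and 343 counts in HFD replicates 1 to 4 and 397, 244, 276 and 258 counts in CF replicates 1 to 4. In CPM this was 7.23 ± 2.07 in HFD and 8.35 ± 1.51 in CF. HFD replicates 1 and 2 lay below all CF libraries and HFD replicates 3 and 4 within them. Its log2 fold change was -0.21 ± 0.23 (edgeR, adjusted p = 0.893). As a share of counts it was 0.000779% ± 0.000235 in HFD and 0.000770% ± 0.0000600 in CF, and scaled by library size alone the log2 fold change was 0.02, so the sign depends on the scaling.

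The lowest library of each diet was the same for the 6 RNAs. HFD replicate 2 had the lowest CPM of its diet for all 6, and CF replicate 4 the lowest of its diet for all 6. These were also the libraries with the highest TMM factor of their diet, 1.13 and 1.18, where the factors of the others ran from 1.01 to 1.11 in HFD and from 0.80 to 0.90 in CF. A higher factor lowers every CPM of a library, and its part in these lowest values was not tested. The highest library was not shared: HFD replicate 1 was the highest of its diet for Rpph1, Rn7sk, Rn7s1 and Rn7s2 but not for Rmrp or Terc.

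Per kilobase of RNA, the order of levels in CF was Rn7s2 (36800 CPM per kb), Rn7s1 (23300), Rmrp (11600), Rpph1 (5270), Terc (19.7) and Rn7sk (3.15). In HFD the order was the same, at 23200, 16400, 6840, 4300, 17.1 and 2.86 CPM per kb. In CF no neighbours in this order overlapped between libraries, whereas in HFD the ranges of Rn7s2 and Rn7s1 and those of Rmrp and Rpph1 overlapped. These levels are of the counted loci, and the order of the 7SK and 7SL loci depends on which locus a read was given to.

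Genes that resemble Rn7sk held far more counts than Rn7sk itself, and whether their reads came from 7SK RNA was not tested. In the table, 8 annotated genes with at least 75% identity to Rn7sk stood beside it, and Rn7sk held 0.015% of the family's raw counts over all libraries. Gm24447 held 55.9% and Gm26315 38.7%. Gm24447 is identical to Rn7sk over the opening 100 bases printed above, and Gm26315 differs from it there only in the first few bases. A read from the stretch they share could come from any of these loci. Gm24447 stood at 3368, 1857, 4457 and 3375 CPM in HFD replicates 1 to 4 and at 4191, 4452, 4444 and 3631 CPM in CF replicates 1 to 4. Its log2 fold change was -0.36 (adjusted p = 0.812), and that of Gm26315 was -0.34 (adjusted p = 0.861, edgeR). Summed, the 9 genes had 5884 ± 2018 CPM in HFD and 7439 ± 1056 CPM in CF, a log2 ratio of -0.34 with an exact two-sided permutation p of 0.2 (n = 4 each). Summing gave the 7SK family a level near that of Rn7s1, and it left the comparison of diets uncalled. In the study's methods uniquely mapped read pairs were kept, and how reads of identical loci were assigned is not given in the sources used here.

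**Figure D2:**
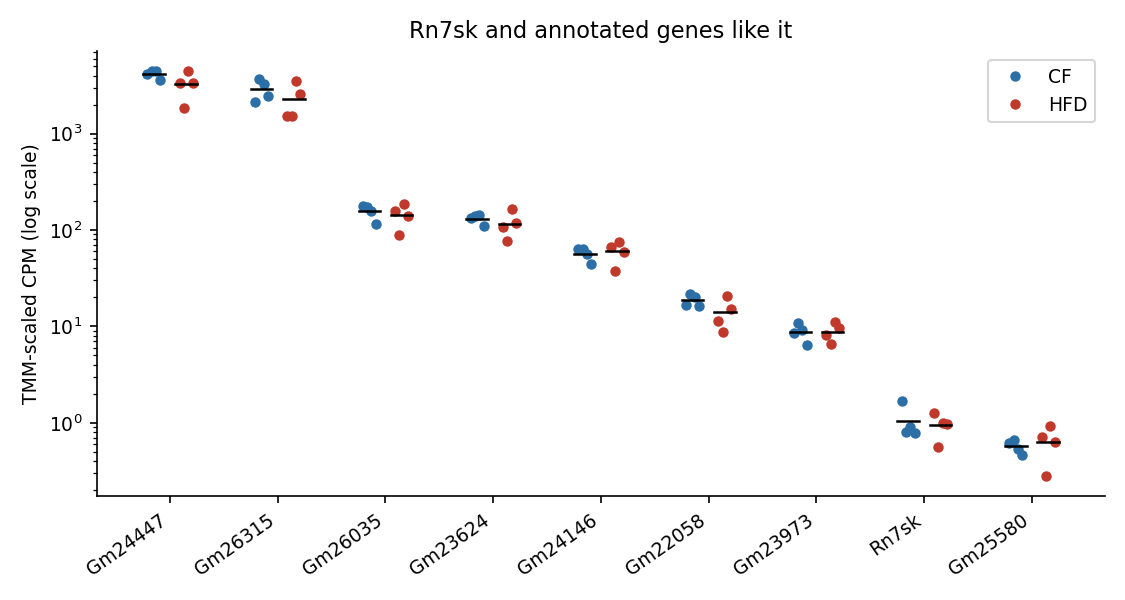
TMM-scaled CPM (log axis) of Rn7sk and of the 8 annotated genes with at least 75% identity to it, in CF (blue) and HFD (red). Points are libraries and lines are means (n = 4 each). Gm24447 and Gm26315 average 3722 and 2580 CPM, Rn7sk 0.994 CPM, and the diets overlap for every gene.

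The 7SL family held 6 genes by the same identity limit. Rn7s2 had 55.9% and Rn7s1 36.9% of its raw counts over all libraries, and Rn7s6, an annotated relative with 85% identity, had 4.48%. Summed, the family had 12860 ± 4814 CPM in HFD and 19340 ± 3822 CPM in CF, a log2 ratio of -0.59 with an exact two-sided permutation p of 0.0857 (n = 4 each). Rn7s6 had a log2 fold change of -0.42 (adjusted p = 0.774, edgeR).

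Although Rn7s1 and Rn7s2 have the same sequence, the ratio of their counts was not the same in all libraries. The ratios of this locus were all looked at after the data were seen, so they are given as a description, with no test. Counts of Rn7s1 over Rn7s2 were 0.72, 0.697, 0.684 and 0.704 in HFD replicates 1 to 4 and 0.615, 0.64, 0.635 and 0.647 in CF replicates 1 to 4, with no overlap. The log2 ratio differed by 0.14 between diets. Gm47299, which covers the 3′ end of Rn7s2, differed in the opposite direction without passing the test across genes. It had 725 ± 367 CPM in HFD and 359 ± 116 CPM in CF (log2 fold change 1.02, adjusted p = 0.438 by edgeR). Its counts over those of Rn7s2 were 0.112, 0.0846, 0.0686 and 0.146 in HFD and 0.0409, 0.0246, 0.0237 and 0.0435 in CF, a log2 difference of 1.63. When the counts of Gm47299 were added to those of Rn7s2, the difference in the ratio of Rn7s1 to Rn7s2 was 0.05 on the log2 scale and the diets overlapped. Reads inside the identical 300 bases carry nothing that assigns them to Rn7s1 or Rn7s2, so the 2 loci cannot be told apart by these counts.

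Ratios within a library compare the RNAs with each other without a size factor. With the 7SL genes summed there were 10 pairs. Rmrp over Rpph1 was 0.971, 1.37, 1.58 and 1.53 in HFD replicates 1 to 4 and 1.81, 1.8, 1.87 and 2.1 in CF replicates 1 to 4. All HFD ratios were below all CF ratios, a log2 difference of -0.50. Rmrp over Terc was 264, 263, 250 and 250 in HFD and 353, 431, 358 and 365 in CF, again without overlap, a log2 difference of -0.55. The spread of this ratio was narrow in HFD, with an SD of 0.04 on the log2 scale, beside 0.13 in CF. Both pairs had an exact two-sided permutation p of 0.0286 and an adjusted p of 0.143 over the 10 pairs, so neither difference passed the adjustment. The other 8 pairs had overlapping diets and adjusted p values of 0.171 or more. Among them was Rmrp over 7SL, with a log2 difference of -0.13 (adjusted exact p = 0.943) that turned to 0.16 without HFD replicate 1.

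**Figure D3:**
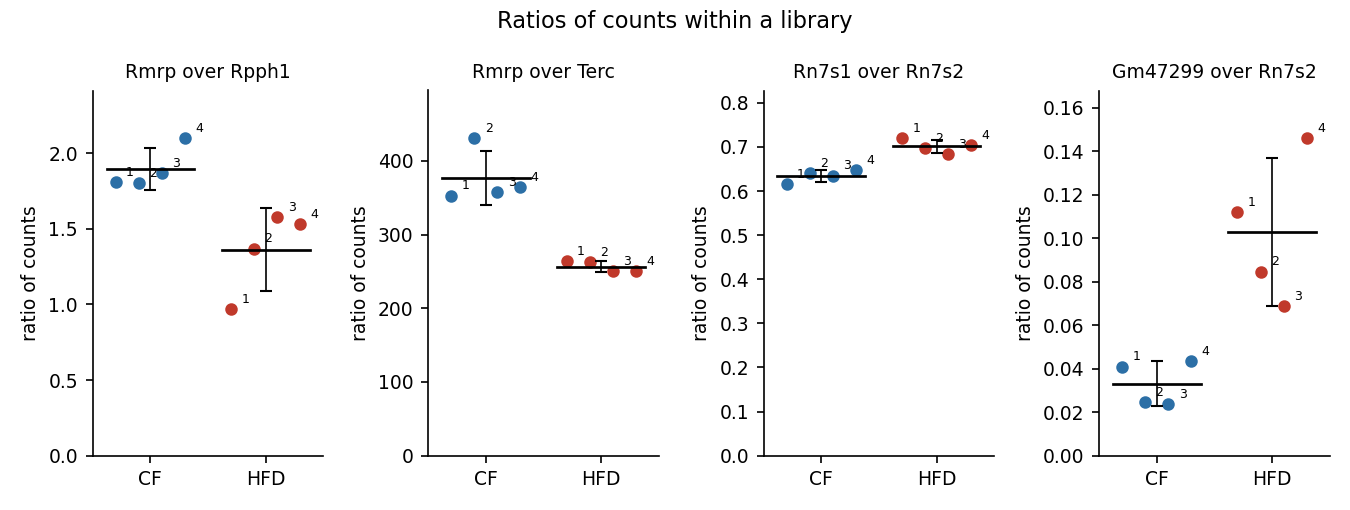
Ratios of raw counts within each library (linear axes from 0) for Rmrp over Rpph1, Rmrp over Terc, Rn7s1 over Rn7s2 and Gm47299 over Rn7s2, in CF (blue) and HFD (red). Points are libraries with their replicate number, lines are means and bars are SD (n = 4 each), and in all 4 panels the diets do not overlap.

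The structured RNAs were next placed among non-coding genes by length, since the short ones had taken fewer of the counts in HFD. The median log2 fold change was -1.28 for non-coding genes of up to 100 nt (n = 180), -1.32 for 101 to 150 nt (n = 390) and -1.26 for 151 to 200 nt (n = 71). It was -0.29 for 201 to 500 nt (n = 98), -0.20 for 501 to 1000 nt (n = 201), -0.11 above 1000 nt (n = 848) and 0.07 for protein-coding genes (n = 11762). The small medians of the longer classes moved with single libraries: without HFD replicate 4 they were -0.10 for 501 to 1000 nt, -0.05 above 1000 nt and 0.03 for protein-coding genes, without CF replicate 4 they were -0.11 and -0.06 for the 2 non-coding classes, and without HFD replicate 1 the class above 1000 nt was at -0.21. Without CF replicate 2 it was at -0.17 and without CF replicate 1 at -0.07. The 6 structured RNAs lay between -0.76 and -0.14 in the class of 201 to 500 nt. There 73 of 98 genes were below 0, beside 40.3% of all genes tested, and 8 were called, beside 0.423%. The 8 called were snoRNAs of 205 to 216 nt, shorter than any of the structured RNAs. Rmrp, the shortest of the 6, was the 24th lowest of the 98. Among the 6, the log2 fold change was higher in the longer RNAs (Pearson r = 0.726 and Spearman rho = 0.928 over 6 genes in the same 8 libraries, of which Rn7s1 and Rn7s2 share a sequence), given as a description.

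**Figure D4:**
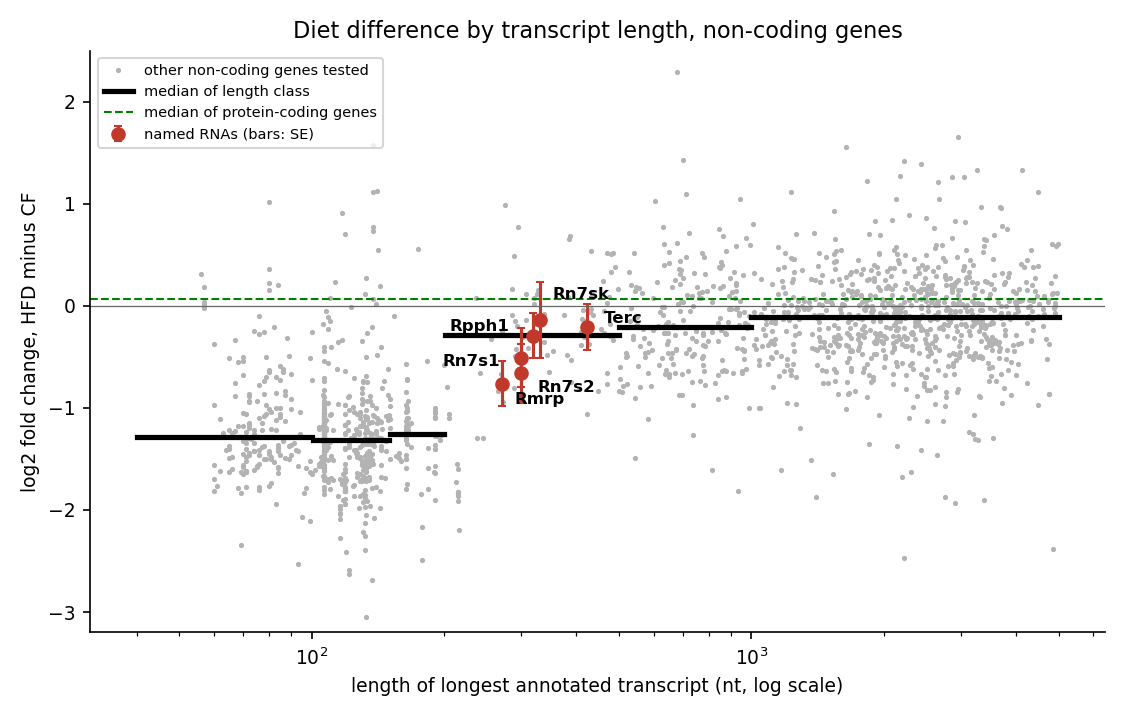
Log2 fold change (HFD minus CF) against the length of the longest annotated transcript (nt, log axis) for non-coding genes between 40 and 5000 nt (55 genes beyond the axes are not drawn). Grey points are genes, black lines are medians of length classes, the dashed green line is the median of protein-coding genes, and red points are the 6 structured RNAs with SE. The structured RNAs lie at -0.76 to -0.14, between the short classes near -1.3 and the protein-coding median of 0.07.

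Some other RNAs near the lower edge of this class are given for comparison. They were chosen after their values were seen, so their direction is no property of the class. The U3 snoRNA genes Rnu3a and Rnu3b1 to Rnu3b4, which act in ribosomal RNA processing as Rmrp does and are 213 to 215 nt long, had log2 fold changes of -1.84 to -1.72 (adjusted p = 0.0355 each, edgeR) and were called. Snora73a and Snora73b, of 205 nt, had -1.06 (adjusted p = 0.0801) and -1.09 (adjusted p = 0.0431). Of scaRNAs near Rmrp in length, Scarna6, 265 nt long, had -0.84 (adjusted p = 0.124) and Gm25395, 272 nt long, had -0.94 (adjusted p = 0.11), while Scarna13, 275 nt long, had 0.98 ± 1.62 (adjusted p = 0.937), with the groups overlapping, and Gm23547, a snoRNA of 271 nt, had -0.25 (adjusted p = 0.913).

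Against the summed counts of all short non-coding genes, every one of the 6 RNAs was higher in HFD. The log2 difference of the ratio was 0.66 for Rmrp, 0.74 for Rn7s2, 0.88 for Rn7s1, 1.16 for Rpph1, 1.21 for Terc and 1.33 for Rn7sk, with no overlap and an exact two-sided permutation p of 0.0286 (adjusted p = 0.0286) for each. The denominator is the same for all, and 71.6% of all other genes tested and 77.9% of protein-coding genes were apart in the same way, so this is not a trait of the 6 RNAs. Without HFD replicate 1 the difference was 0.42 for Rn7s2 and 0.55 for Rn7s1. With single libraries left out the adjusted p ran from 0.0286 to 0.143. Against summed protein-coding counts, Rmrp was lower by -0.84 on the log2 scale with no overlap (exact permutation p = 0.0286, adjusted p = 0.114), and the other 5 overlapped between the diets.

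Of 6 other small RNAs of RNA polymerase III that were listed, the 3 in the tested table are shorter than the structured RNAs, and all 3 had lower log2 fold changes. The list holds no 5S rRNA genes. Vaultrc5, an RNA of the vault particle with 143 nt, had 114 ± 38.7 CPM in HFD and 449 ± 157 CPM in CF, and was called (log2 fold change -1.98 ± 0.31, adjusted p = 0.0431). The Y RNAs Rny1 (112 nt) and Rny3 (102 nt) had log2 fold changes of -1.70 ± 0.31 (adjusted p = 0.072) and -1.60 ± 0.28 (adjusted p = 0.0618, edgeR). For all 3 the diets did not overlap, beside 3.58% of all genes.

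The listed genes for proteins that bind, make or act with these RNAs showed no called difference. Of 50 listed genes 48 were tested, 38 had a log2 fold change above 0 and 10 below, with a median of 0.12 beside 0.06 for all genes, and 59.7% of all genes were above 0. edgeR called none of them, nor did DESeq2. At an unadjusted p under 0.05 there was 1, Shq1, which was also the one whose groups did not overlap, beside 2.58% of all genes that were apart in that direction. Without HFD replicate 4 the medians were 0.05 for the subunits of RNase MRP and RNase P, 0.11 for the signal recognition particle, 0.04 for telomerase proteins, 0.02 for the 7SK particle and 0.04 for the promoter factors, so their sizes rest in part on that library. Other libraries lowered some of them as well. The median was 0.01 for the 7SK particle without HFD replicate 1. Without CF replicate 3 it was 0.02 for the promoter factors and 0.11 for the signal recognition particle.

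Of the subunits of RNase MRP and RNase P, 9 of 10 tested were above 0, with a median of 0.19. The lowest p values belonged to Rpp38, a subunit of both enzymes, with 1.71 ± 0.401 CPM in HFD and 1.23 ± 0.177 CPM in CF (log2 fold change 0.48, adjusted p = 0.703), and Pop1, the largest subunit (0.26, adjusted p = 0.819). Of the signal recognition particle and its receptor, 9 of 9 were above 0, with a median of 0.21. Srpr, the receptor subunit alpha, had 33.8 ± 2.69 CPM in HFD and 28.5 ± 2.94 CPM in CF (log2 fold change 0.25, adjusted p = 0.587), and Srp14, which binds the Alu domain of 7SL RNA, had 15.2 ± 2.29 and 11.9 ± 2.35 CPM (0.36, adjusted p = 0.659).

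Of the list for the 7SK particle and P-TEFb, 5 of 9 were above 0, with a median of 0.05. Among the 5 were Aff4 (0.06) and Ell2, elongation factors that are not parts of the 7SK particle or of P-TEFb itself. The 2 with the lowest p were Ell2, an elongation factor (log2 fold change 0.65 ± 0.53, adjusted p = 0.839), and Hexim2, an inhibitor of P-TEFb that needs 7SK RNA (0.62 ± 0.55, adjusted p = 0.854). Both had wide errors. Larp7, the protein that stays bound to 7SK RNA, was at 23.6 ± 2.14 CPM in HFD and 24.3 ± 2.74 CPM in CF.

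Of the telomerase proteins and assembly factors, 8 of 9 were above 0, with a median of 0.12. Shq1, a chaperone of dyskerin, had 4.39 ± 0.745 CPM in HFD and 3.03 ± 0.557 CPM in CF without overlap (log2 fold change 0.53, unadjusted p = 0.0269, adjusted p = 0.442). Wrap53, which guides telomerase to Cajal bodies, had a log2 fold change of 0.30 (adjusted p = 0.697, edgeR). Tert, the reverse transcriptase that copies Terc, was low in both diets, at 1.11 ± 0.834 CPM in HFD and 0.914 ± 0.138 CPM in CF.

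Of the list of factors for the type of polymerase III promoter that lies outside the gene, which serve Rmrp, Rpph1 and Rn7sk, 7 of 11 were above 0, with a median of 0.07. The list also holds Ssb (log2 fold change 0.13), an RNA-binding protein and not a promoter factor, which is among the 7. Snapc2, a subunit of the SNAP complex, and Zfp143, an activator of such promoters, both stood at 0.30 in log2 fold change (edgeR, adjusted p = 0.781 for Snapc2 and 0.813 for Zfp143).

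**Figure D5:**
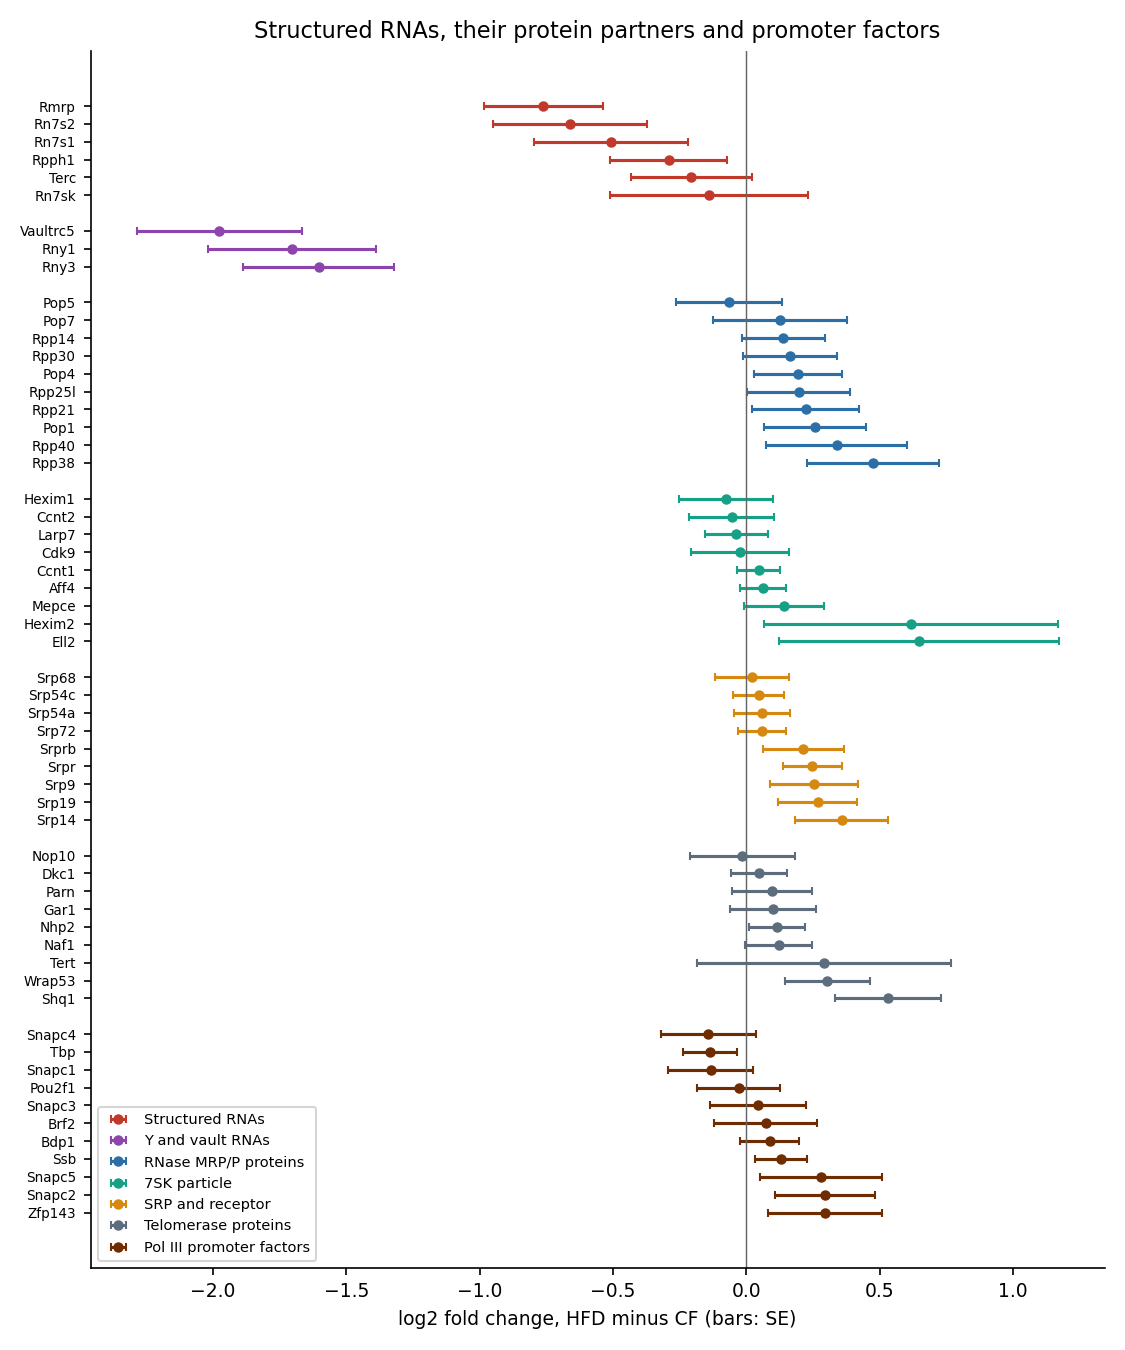
Log2 fold change (HFD minus CF) with SE for the 6 structured RNAs, 3 other small RNAs of polymerase III, and 48 genes for proteins that bind, make or act with the structured RNAs, grouped by list. With TMM scaling the structured RNAs lie below 0 (Rn7sk and Terc turn above 0 with library size alone), the Y and vault RNAs lower still, and most protein genes lie just above 0 with none called.

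Across the 8 libraries the closest pair was Rn7s1 and Rn7s2, with a Pearson r of 0.992 of log2 CPM. Rmrp and Terc followed each other at r = 0.809, and Rpph1 followed Rn7s1 at 0.866. The lowest values were 0.41 for Rmrp and Rn7sk and 0.439 for Rn7s1 and Terc. Once the mean of each diet was removed, Rmrp and Terc stood at 0.958, whereas Rmrp fell from 0.643 to 0.324 with Rn7s1 and from 0.72 to 0.369 with Rn7s2, and the lowest pair was Rn7s1 and Terc at 0.296. All pairs share the same libraries and size factors, and the values are given as a description over 8 libraries.

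Of all genes tested, the 3 most like Rmrp were Gm26640, Snora43 and Scarna6 (r = 0.976, 0.976 and 0.973). For Rpph1 they were Rnu1b2, a U1 snRNA gene, Crip2 and Gm22710 (0.968, 0.962 and 0.948), and for Terc they were Alkbh7, Rab26os and Fzd1 (0.955, 0.945 and 0.945). For Rn7sk, whose counts were low, they were Faap100, Timm17a and Nars2 (0.931, 0.931 and 0.929). For the 7SL genes, Gm26461, an annotated copy, came after the twin gene, at 0.961 for Rn7s1 and 0.951 for Rn7s2, and the next were n-R5s127 (0.956) and Gm23744 (0.951).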

How the data were processed

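RNA of sorted CDPs was analysed in 8 libraries, 4 HFD and 4 CF. The authors deposited a table of raw counts per gene. The submitters' processing notes name FastQC, cutadapt, HISAT2, StringTie and GRCm38, and the study's methods say that uniquely mapped read pairs were kept and counted on GENCODE comprehensive genes. The release is not given in the sources used here. No gene in the table had a highest count under 29, and columns were matched to replicates by the sample number in their names. FPKM and transcript values were not used here.

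GENCODE vM21, joined by Ensembl identifier, gave names, positions, lengths, overlaps and sequences (16067 of 16119 genes matched). The sequence of the 7SL genes is not reported here. Rmrp has another identifier in vM21 that was not analysed here. Identity was computed with Biopython 1.88. Counts were fitted in R 4.3.3 with edgeR 4.0.16 (filterByExpr, TMM, robust quasi-likelihood, diet as the only term), with Benjamini-Hochberg adjustment over all 15837 genes tested and a threshold of 0.05. CPM are scaled by TMM, log2 CPM used a prior count of 2, and the SE of a log2 fold change is its size divided by the square root of the F statistic. Shares and ratios (pseudocount 1 in each count) were compared by exact two-sided permutation of the diet over libraries, 70 arrangements in all. The fits were tested on simulated data.

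The members and gene lists were chosen with earlier results of these data known. Named genes are all members, every called gene or else the 2 lowest p per list of partners, the 3 genes most correlated with each member, the sort gate and genes overlapping a member. Genes outside this rule are said to be chosen after their values were seen, and the vault and Y RNAs, Larp7 and Tert were added in that way too. Alternatives were other size factors, DESeq2 1.42.0, limma 3.58.1, other filters, a replicate block, other denominators and each library left out.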

Additional observations from a re-analysis of the deposited data

Results flagged for a closer look

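In groups of 4 libraries, 50 sets of values were searched for a library that stood far from the other 3, and chance alone would mark about 1 in 20. There were 3, and each was HFD replicate 1. Its log2 ratio of Rmrp over 7SL was -3.53, while the other HFD libraries lay between -2.48 and -2.27. Its log2 ratio of Rpph1 over 7SL was -3.49, beside -2.96 to -2.88. Its log2 ratio of Rn7sk over Terc was -2.21, beside -3.23 to -3.07, and rests on 39 counts of Rn7sk. The same library had 19630 CPM of summed neutrophil markers, the highest of the 8, and the part of those cells in the ratios was not tested.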

How the results depend on the processing

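All 6 log2 fold changes stayed below 0 with RLE size factors, TMM of protein-coding genes, DESeq2, limma voom, no filter, 1 CPM in 4 libraries and the replicate block. Scaling by library size alone moved the median of all genes from 0.06 to 0.25 and gave Rn7sk 0.0875 and Terc 0.0182, with 10 genes called higher. The medians were then 0.39 for RNase MRP and RNase P proteins, 0.23 for the 7SK particle, 0.42 for the signal recognition particle, 0.31 for telomerase proteins and 0.29 for type 3 polymerase III factors. DESeq2 called 503 lower and 64 higher genes and Rmrp (-0.77, adjusted p = 0.0144). As a share of protein-coding counts, Rn7sk was at -0.21 and Terc at -0.25. The ratio of Rn7s1 to Rn7s2 was 0.0505 with Gm47299 added, an alternative chosen after seeing the data. The causes of these shifts were not tested.

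Same-numbered libraries of the diets did not deviate together (correlations from -0.439 to -0.078, beside -0.191 to 0.361 for libraries of different numbers). So few pairs cannot show whether the numbers pair the libraries, and the labels do not say. With the number as a replicate block, 0 genes were called lower and 0 higher, against 675 lower and 236 higher at an unadjusted p under 0.05, and Rmrp stood at -0.78 (adjusted p = 0.739).

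With each library left out in turn, lower calls ranged from 0 to 166 and higher calls from 0 to 34. Log2 fold changes ranged from -0.91 to -0.64 for Rmrp, -0.43 to -0.16 for Rpph1, -0.30 to 0.19 for Rn7sk, -0.79 to -0.34 for Rn7s1, -0.93 to -0.50 for Rn7s2 and -0.37 to -0.0732 for Terc. Medians ranged from 0.0543 to 0.25 for RNase MRP and RNase P proteins, 0.0108 to 0.0664 for the 7SK particle, 0.11 to 0.22 for the signal recognition particle, 0.0392 to 0.18 for telomerase proteins and 0.0244 to 0.11 for the promoter factors, and by length from -0.35 to -0.26 for 201 to 500 nt, -0.28 to -0.10 for 501 to 1000 nt and -0.21 to -0.0453 above 1000 nt. Log2 differences of the shares of counts ranged from -0.14 to 0.0449 for Rpph1, -0.0351 to 0.31 for Rn7sk and -0.17 to 0.14 for Terc. They ranged from -0.26 to 0.16 for Rmrp over 7SL, -0.22 to 0.0418 for Rpph1 over Terc, -0.11 to 0.26 for Rn7sk over Terc, and -0.29 to 0.10 for Rn7sk against protein-coding genes. Against short non-coding genes they ranged from 0.54 to 0.78 for Rmrp, 0.97 to 1.28 for Rpph1, 1.08 to 1.53 for Rn7sk, 0.55 to 1.05 for Rn7s1, 0.42 to 0.90 for Rn7s2 and 1.08 to 1.34 for Terc. Rn7sk rests on 18 to 65 counts a library.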
